A study of Mus musculus with 3 samples.

Results

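This account covers 8 genes of amino acid synthesis and its links to central metabolism, Asns, Aldh18a1, Pycr1, Got1, Gpt2, Bcat1, Bcat2 and Pck2, out of 21887 protein-coding genes on the nuclear chromosomes. They were chosen by name from these pathways, and every peak that touched a gene's RefSeq span or the 20 kb on either side of it was taken. All 8 were found in the gene table. Their windows held 4 of the 2642 ATF4 peaks and 9 of the 25419 CEBPG peaks.

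The peaks come from chromatin immunoprecipitation with sequencing (ChIP-seq) on wild-type mouse embryonic fibroblasts of the C57BL/6 strain. These are primary cells, isolated at E13.5 (the embryonic day), which spent 24 hours in culture medium and then 3 hours in amino acid deprived medium before fixation. An ATF4 antibody, an antiserum to the C-terminus of CEBPG and a GFP antibody were used, with 1 library each. The GFP library was not analysed here, and all 3 libraries came from deprived cells, so no value here compares deprived with fed cells. Peak lists carry no expression values, and the labelled cell type could not be checked against its markers. No replicate exists and the read depth is unknown, so no value below has an error between cultures. The members were picked with earlier results of these data known, and their counts are a description without a test.

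ATF4 is a basic leucine zipper transcription factor whose mRNA is translated more when cells lack amino acids. It binds DNA as a dimer, often with a member of the C/EBP family such as CEBPG, at composite sites that join an ATF-type and a C/EBP-type half-site (C/EBP-ATF response elements). Asparagine synthetase is the textbook case, because its promoter holds such an element and answers to the loss of amino acids. The other enzymes make proline from glutamate (Aldh18a1, Pycr1), move amino groups between amino acids and keto acids (Got1, Gpt2, Bcat1, Bcat2) or turn oxaloacetate into phosphoenolpyruvate in mitochondria (Pck2).

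Of the 8 genes, 4 had both factors over or just upstream of their start, 3 had CEBPG alone and 1 had neither within 20 kb. The RefSeq promoter windows, 250 bases before to 50 after each annotated start (GRCm38.p6, the assembly behind mm10), were searched on both strands for TGATGNAA, the core of the composite element. It matched in 4 of the 8 genes, Asns, Pck2, Got1 and Pycr1. That was 4 of the 10 member windows, against 3.6% of all protein-coding promoter windows. Among all protein-coding genes with a promoter entry, 1.64% had a CEBPG peak over the window and 0.149% an overlapping ATF4 and CEBPG pair. The 4 member sites are shown first because they lie under the peaks described below. Each is read 5′ to 3′ in the orientation of the core, which is in capitals, with 16 bases on either side.

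Asns, chr6:7693209-7693248, minus strand: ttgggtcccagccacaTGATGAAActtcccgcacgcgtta
Pck2, chr14:55540147-55540186, minus strand: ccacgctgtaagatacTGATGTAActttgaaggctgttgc
Got1, chr19:43524684-43524723, plus strand: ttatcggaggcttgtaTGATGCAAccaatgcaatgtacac
Pycr1, chr11:120643828-120643867, minus strand: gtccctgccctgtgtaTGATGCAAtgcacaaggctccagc

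The cores of Got1 and Pycr1 were the same, and the longest stretch shared by these 2 sites was 12 bases, tgtaTGATGCAA. The Asns core, TGATGAAA, and the Pck2 core, TGATGTAA, each had their own base at the free position. At Asns and Pycr1 the core ran in the direction of the gene, and at Pck2 and Got1 against it. In the direction of the gene, its first base lay 103 bases upstream of the start at both Pck2 and Pycr1, and 102 at Got1. At Asns it lay 23 bases upstream. Over the windows of all protein-coding genes, 73 of 775 matches (9.42%) began 110 to 90 bases upstream, a range chosen after these positions were seen. All 4 cores lay inside the CEBPG peak of their gene, 5 bp from its centre at Asns, 15 bp at Got1, 24 bp at Pck2 and 48 bp at Pycr1. These 4 CEBPG peaks covered the whole window searched, so any match found there had to lie inside them. The Pck2, Asns and Got1 cores also lay inside an ATF4 peak, 1 bp, 30 bp and 39 bp from its centre. Those ATF4 peaks covered 300, 286 and 192 bases of the 300-base window, so at Pck2 this too was fixed beforehand.

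Asns, which makes asparagine from aspartate and glutamine, had 1 peak in each list. The ATF4 peak scored 188.31 (chr6:7692952-7693445, 494 bp wide) and the CEBPG peak 1554.72 (chr6:7692891-7693576, 686 bp wide). The score is the authors' own value for each peak, read from the end of its name, starts at 40 in both lists and can be ranked only within a list. By that rank the Asns peaks were number 48 in the ATF4 list (the top 1.82%) and number 154 in the CEBPG list (0.606%). Both peaks covered the annotated start, with centres 10 bp downstream (ATF4) and 24 bp upstream (CEBPG). The CEBPG peak covered the whole promoter window, printed here on the minus strand (chr6:7693160-7693459) with the core in capitals.

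Asns promoter: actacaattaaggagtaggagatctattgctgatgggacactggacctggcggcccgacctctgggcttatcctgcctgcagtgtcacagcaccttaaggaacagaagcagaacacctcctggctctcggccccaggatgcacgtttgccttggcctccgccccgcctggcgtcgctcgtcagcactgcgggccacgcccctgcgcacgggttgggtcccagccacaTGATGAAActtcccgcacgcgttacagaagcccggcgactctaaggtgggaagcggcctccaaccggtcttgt

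Pck2, the mitochondrial phosphoenolpyruvate carboxykinase, had the highest scores of the 8 genes in both lists. The ATF4 peak scored 259.71 (chr14:55539962-55540373, 412 bp wide, rank 25) and the CEBPG peak 2842.47 (chr14:55539846-55540536, 691 bp wide, rank 50). They were centred 98 bp and 75 bp upstream of the start, and both covered all 300 bases of the promoter window (chr14:55540016-55540315, plus strand). The core there reads on the strand opposite to the gene, so the capitals show its reverse complement.

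Pck2 promoter: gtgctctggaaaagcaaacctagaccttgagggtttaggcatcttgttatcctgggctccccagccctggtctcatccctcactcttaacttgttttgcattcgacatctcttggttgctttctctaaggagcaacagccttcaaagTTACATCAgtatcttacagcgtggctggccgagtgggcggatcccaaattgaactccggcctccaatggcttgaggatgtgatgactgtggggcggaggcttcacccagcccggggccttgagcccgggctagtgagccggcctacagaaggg

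The alanine and aspartate aminotransferase genes Gpt2 and Got1 differed in where their peaks lay. Gpt2, the mitochondrial alanine aminotransferase, carried an ATF4 peak of score 152.73 (chr8:85492078-85492390, 313 bp wide, rank 72) and a CEBPG peak of 2650.66 (chr8:85492046-85492546, 501 bp wide, rank 57). Both ended before the annotated start, 186 bp and 30 bp upstream of it, with centres 342 bp and 280 bp upstream. Only 65 bases of the ATF4 peak reached the promoter window, which held no match to the core. The sequence under the rest of the Gpt2 peaks was not analysed here.

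Got1, the cytosolic aspartate aminotransferase, had the lowest ATF4 score of the 4, 55.08 (chr19:43524647-43524838, 192 bp wide). That peak ranked 531 of 2642 (the top 20.1%). Its CEBPG peak scored 1151.91 (chr19:43524463-43524974, 512 bp wide) and ranked 245 of 25419 (0.964%). The centres lay 138 bp (ATF4) and 114 bp (CEBPG) upstream of the start. The whole Got1 ATF4 peak lay in the promoter window (chr19:43524556-43524855, minus strand), again with the reverse complement of the core in capitals.

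Got1 promoter: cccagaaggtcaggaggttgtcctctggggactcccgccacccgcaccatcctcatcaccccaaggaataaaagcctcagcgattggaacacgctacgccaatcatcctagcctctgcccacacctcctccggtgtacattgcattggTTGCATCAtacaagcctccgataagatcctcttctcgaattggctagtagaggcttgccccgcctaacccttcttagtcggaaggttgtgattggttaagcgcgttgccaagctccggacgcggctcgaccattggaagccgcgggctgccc

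At all 4 of these genes the ATF4 peak lay entirely inside the CEBPG peak. It covered 72% of the CEBPG peak at Asns, 62.5% at Gpt2, 59.6% at Pck2 and 37.5% at Got1. The centres were 23.5 bp apart at Pck2, 24 bp at Got1, 35 bp at Asns and 62 bp at Gpt2. Over all 404 overlapping pairs of the 2 lists, 333 ATF4 peaks (82.4%) lay inside their CEBPG partner and the median gap between centres was 44 bp. The 4 pairs had a median ATF4 score of 170.52 and a median CEBPG score of 2103, against 64.79 and 887.99 over all pairs. Against the medians of all pairs, the Got1 ATF4 score was the only 1 of these 8 scores that was lower. All 4 pairs lay over a promoter window, and the 24 such pairs, these included, had medians of 111.4 and 1175.5. Both Got1 scores lay below those. Of the 24, 95.8% had the ATF4 peak inside its CEBPG partner, and the median gap was 39 bp.

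**Figure D1:**
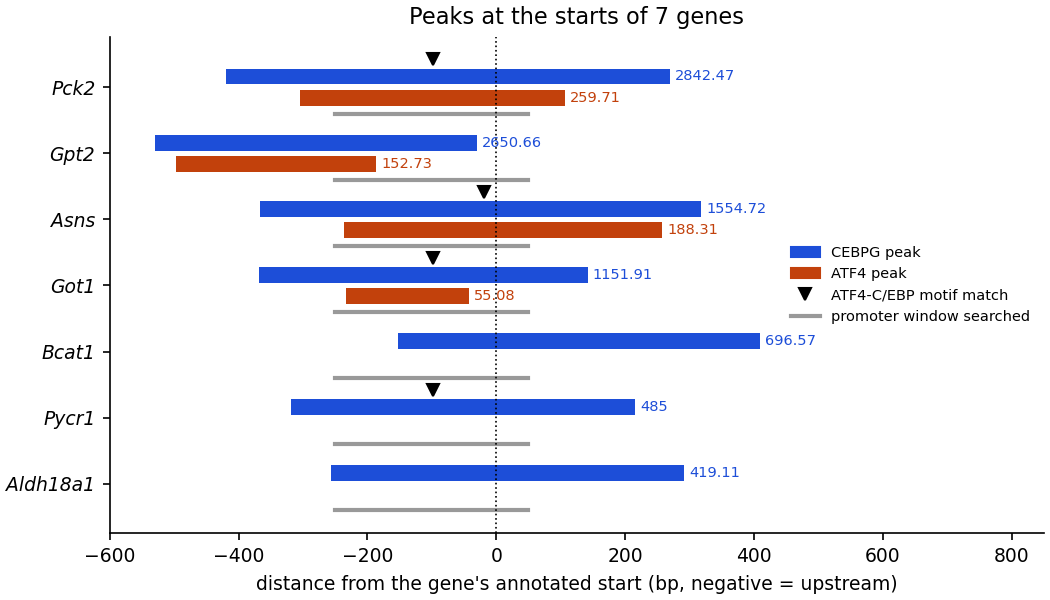
Peaks at the annotated starts of 7 genes, by distance from the start in bp, with each peak's deposited score beside it. Blue bars are CEBPG peaks, orange bars ATF4 peaks, triangles matches to the composite core and grey lines the 300-base windows searched; Gpt2 is the only gene whose CEBPG peak ends upstream of the start.

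The genes of proline synthesis carried CEBPG without a listed ATF4 peak. Aldh18a1, which makes the glutamate semialdehyde from which proline is built, had a CEBPG peak of score 419.11 (chr19:40588172-40588720, 549 bp wide, rank 799) centred 17 bp downstream of its start. Pycr1, the mitochondrial enzyme of the last step to proline, had one of 485 (chr11:120643533-120644066, 534 bp wide, rank 696) centred 52 bp upstream. Both covered the whole promoter window. The Pycr1 window held the composite core, as Got1's did, and a C/EBP-type match (TTGCNNAA) further upstream. The Aldh18a1 window held neither of these, and it held an E-box (CACGTG). The Pycr1 window (chr11:120643699-120643998, minus strand) is printed because it pairs the core with a CEBPG peak and no ATF4 peak.

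Pycr1 promoter: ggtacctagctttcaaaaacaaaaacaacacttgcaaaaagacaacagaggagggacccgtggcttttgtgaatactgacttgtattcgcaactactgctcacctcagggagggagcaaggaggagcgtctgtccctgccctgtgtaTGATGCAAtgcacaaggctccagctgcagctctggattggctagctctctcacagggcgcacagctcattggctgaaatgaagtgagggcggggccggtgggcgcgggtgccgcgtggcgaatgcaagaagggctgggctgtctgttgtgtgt

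The 2 branched-chain aminotransferases, which take the amino group off leucine, isoleucine and valine, differed from each other. Bcat1, the cytosolic enzyme, had a CEBPG peak of score 696.57 (chr6:145075748-145076310, 563 bp wide, rank 463) over the start at the end of its span, centred 128 bp downstream. It had a second, weak CEBPG peak inside the gene (49.49, 100 bp wide, rank 10509), 5470 bp upstream of its other annotated start, and no ATF4 peak. Bcat2, the mitochondrial enzyme, had no peak of either list in its window. The nearest peaks lay 25.7 kb (CEBPG, 112.07) and 26.6 kb (ATF4, 165.67) from its span, and the ATF4 peak lay on a further CEBPG peak of 858.84 (chr7:45616171-45616801). All 3 were nearest to Fgf21, a stress-induced hormone gene and known ATF4 target, and not to Bcat2.

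**Figure D2:**
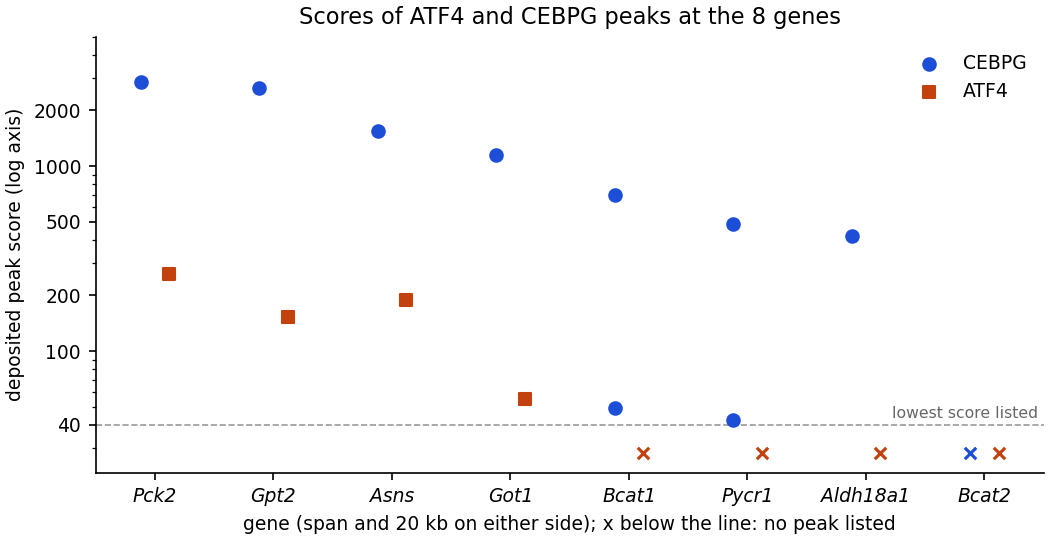
Deposited scores (log axis) of every ATF4 (squares) and CEBPG (circles) peak in the windows of the 8 genes, with crosses where a list held no peak. The 4 genes with an ATF4 peak have the 4 highest CEBPG scores, 1151.91 to 2842.47, and the 3 with CEBPG alone lie from 419.11 to 696.57.

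The CEBPG scores of the members with and without ATF4 did not overlap. They ran from 1151.91 to 2842.47 with an ATF4 peak and from 419.11 to 696.57 without one, setting aside 2 weak CEBPG peaks of 42.46 and 49.49 away from the starts. In all, 281 CEBPG peaks touched a promoter window of a protein-coding gene. In the score classes used here, which were set after the member scores were known, 0 of 24 such peaks from 400 to 700 overlapped an ATF4 peak (95% Wilson interval 0 to 13.8%). From 1000 to 3000, 11 of 14 did (78.6%, 52.4 to 92.4%). The members are part of both counts, which are 0 of 21 and 7 of 10 without them. Between 200 and 400 the count was 3 of 34 (8.82%), so the share did not rise in every class. Between 700 and 1000, where no member lay, it was 5 of 8 (62.5%). These classes cover promoter windows only. Elsewhere, CEBPG peaks from 400 to 700 did overlap ATF4 peaks, such as those of 409.8 and 684.82 on chromosome 1. A missing ATF4 peak means only that none was listed at a score of 40 or more. At unknown depth, a weaker ATF4 signal at Aldh18a1, Pycr1 and Bcat1 would not appear in these lists. Intervals cover counting error only.

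**Figure D3:**
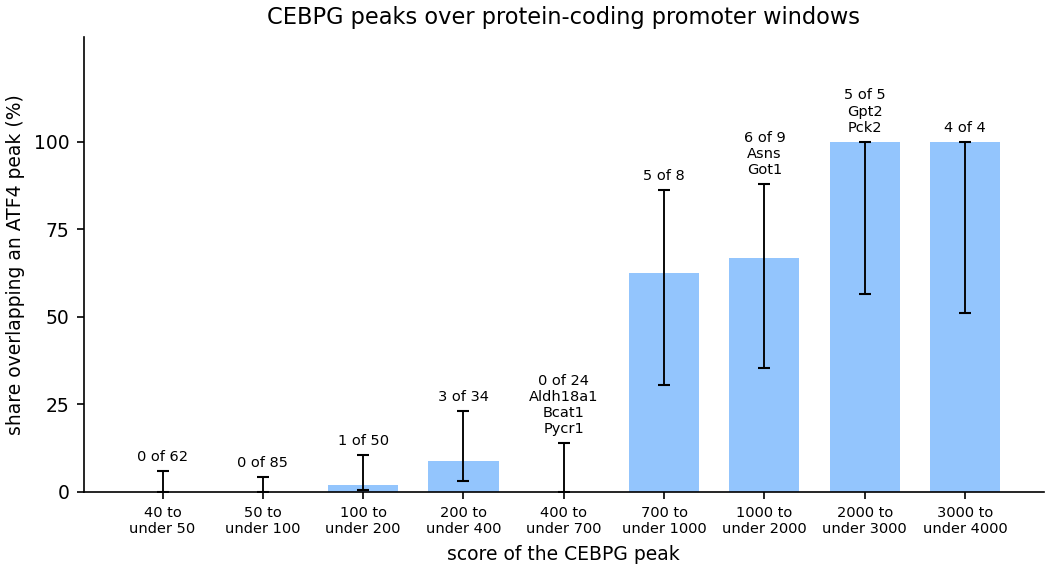
Share of CEBPG peaks over a protein-coding promoter window that overlap an ATF4 peak, by CEBPG score, with 95% Wilson intervals and the counts and described genes above each bar. Aldh18a1, Bcat1 and Pycr1 fall in a class with 0 of 24, while Asns and Got1 fall in one with 6 of 9 and Gpt2 and Pck2 in one with 5 of 5.

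Counted over the windows, 4 of the 8 genes had an ATF4 peak, where 7.44% of all protein-coding genes did. A CEBPG peak was present at 7 of 8, against 43.7% of all genes. The 8 genes are not a random sample, so no interval is given for them and the difference was not tested. An overlapping pair was present at 4 of 8, against 1.78%. The windows of the 8 genes held 0.721 ATF4 and 1.62 CEBPG peaks per 100 kb, and those of all protein-coding genes 0.098 and 0.996. The members' median span of 22.8 kb was longer than the 17.2 kb of all genes.

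At the starts themselves the shares of all genes were lower. Among 17492 protein-coding genes with a promoter entry, 1.64% had a CEBPG peak over the promoter window, 0.189% an ATF4 peak and 0.149% an overlapping pair. Of the members, 7 of 8 had the first and 4 of 8 both others. Of the 13 member peaks, the 11 strongest by score within each gene and list all touched a promoter window, and both exceptions were the weak CEBPG peaks near Bcat1 and Pycr1. The one near Pycr1 (42.46) was centred 9628 bp from its start and lay nearer to Notum, which encodes a secreted Wnt-inactivating enzyme. By another measure, a centre within 500 bp of such a start, the counts were 4 of 4 member ATF4 peaks and 7 of 9 member CEBPG peaks. In the whole lists the shares were 1.78% and 1.55%. The whole lists also hold peaks far from any gene, whereas member peaks were taken only from gene windows. The pairs at Pck2, Asns, Gpt2 and Got1 were among only 26 genes with a pair over a promoter window, where they stood 5, 6, 9 and 22 by ATF4 score.

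**Figure D4:**
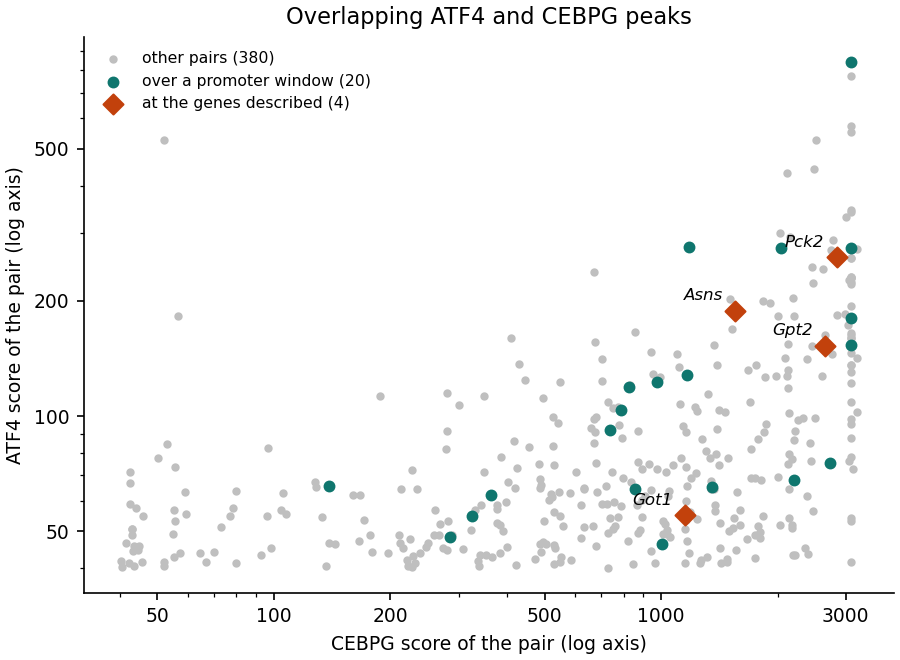
ATF4 against CEBPG scores (both log axes) of the 404 overlapping pairs, with the 4 at Pck2, Gpt2, Asns and Got1 as diamonds, 20 others over a protein-coding promoter window in green and the remaining 380 in grey. Pck2, Gpt2 and Asns lie in the upper right, and Got1 lies below them on both axes.

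The composite core was found in 3 of the 4 member genes with a pair, in 1 of the 3 with CEBPG alone (Pycr1) and not in Bcat2. Counted by window, it was present in 4 of the 10 member windows and in 3.6% of all protein-coding promoter windows. It was present in 14 of the 26 windows with a pair (53.8%, 35.5 to 71.2%), in 56 of 290 with CEBPG and no ATF4 peak (19.3%, 15.2 to 24.2%) and in 696 of 20940 with neither (3.32%, 3.09 to 3.58%). The member windows are part of these counts, and windows with an ATF4 peak but no overlapping pair are in none of them. Of the 10 member windows, 1 held TTGCNNAA (Pycr1), 1 the AP-1-type TGANTCA (Bcat1), 1 CACGTG (Aldh18a1) and 0 the cAMP response element TGACGTCA. Over all protein-coding windows these were present in 10.2%, 6.99%, 7.84% and 2.23%. A match is a description of the letters in the window and was not tested as a binding site.

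Other genes of the same pathways, listed by name together with the members, were counted in the same way. Of 22 such genes, 10 had a CEBPG peak in the window (45.5%), near the 43.7% of all genes, and 1 had an ATF4 peak (4.55%, against 7.44%). None of the 22 had an overlapping pair, against 1.78% of all genes. Of the 16 with a promoter entry 0 had a peak of either list over it. Among all genes with an entry, 1.64% had a CEBPG and 0.189% an ATF4 peak there. With shares that low, counts of 0 among so few genes do not set them apart from other genes. The close relatives of the members were among them. Got2, the mitochondrial aspartate aminotransferase, had 1 CEBPG peak in its window (1083.45), which lay inside the neighbouring transporter gene Slc38a7 and 35967 bp from the Got2 start. Gpt, the other alanine aminotransferase, had a highest CEBPG score of 96.89, at a peak inside Recql4. Pycr3, a relative of Pycr1, had the single ATF4 peak of the list (46.56), which lay nearer to Gfus. Pck1, the cytosolic counterpart of Pck2, had no peak in either list. Prodh, which starts proline breakdown, had a CEBPG peak of 97.85, centred 19119 bp outside the gene. Bckdhb, a subunit of the branched-chain keto acid dehydrogenase, had 2 CEBPG peaks. Its highest score was 80.91, at a peak centred 2628 bp outside the gene. No listed peak was found in the windows of Ass1 and Asl, which make arginine from citrulline, or of Glul, glutamine synthetase.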

How the data were processed

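Per the labels' protocols, single-end reads of 36 bp were made from 1 library per antibody. Trimmomatic, BWA, HOMER and MACS 1.4.2 appear in the submitters' processing notes beside mm10. No settings are stated there, nor any use of the GFP library as background. The deposited files hold peak positions and, at the end of each peak name, a score, which looks like MACS's own but is described by no header. Positions are 1-based. Gene spans came from a RefSeq table of GRCm38.p6 and starts, strands and promoter sequences from the RefSeq promoter table of the same build (32851 windows; 17492 protein-coding genes). Overlap meant at least 1 bp. Peaks were counted by gene in Python 3.11.15 with pandas 2.3.3, and the intervals printed beside shares are 95% Wilson intervals (scipy 1.17.1). Counting and motif search were tested on simulated data. The members and lists were chosen with earlier results of these data known, so no test was run. All members were named; of the pathway list, genes with an ATF4 peak and the 4 next by CEBPG score, plus Pck1, Ass1, Asl and Glul, which were named after their values were seen. Alternatives changed the window, score minimum, overlap rule, assignment to the nearest gene and gene set.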

Additional observations from a re-analysis of the deposited data

How the results depend on the processing

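Of 37 alternative values of the member counts, 33 stayed within 1.5 times the reported value. The highest score per gene and list was the same in all 41 alternatives where a peak remained. That says little about robustness, because a peak keeps its score in any window and only a stronger peak nearby could change the highest. The 41 leave out both Gpt2 scores and the Got1 ATF4 score with the gene span alone, and Bcat2 with 50 kb. With the gene span alone, the count of genes with an ATF4 peak fell from 4 to 2, that of overlapping pairs to 2 and that of ATF4 peaks to 2, because the Gpt2 and Got1 ATF4 peaks end before the span. With 50 kb on either side, CEBPG peaks rose from 9 to 17, and Bcat2 gained the pair near Fgf21. At score minimums of 60 and 100 the Got1 ATF4 peak was lost, leaving 3 genes, and with 50% of both peaks overlapping the pairs were also 3. The share of all genes with an ATF4 peak ran from 0.635% (score minimum 100) to 12% (50 kb), and that with a CEBPG peak from 10.9% to 62.5% under the same settings. No paired analysis was possible because there was 1 library per antibody and no test.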

Other observations

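Among the 390 protein-coding genes with an overlapping pair in their window, the gene with the most similar scores in the 2 libraries was sought for each of the 4 members with a pair, by distance on the log2 scale. For Asns it was Slc7a1, a cationic amino acid transporter (ATF4 202.03, CEBPG 1503.93, distance 0.112). For Got1 it was Fnbp1l (53.44 and 1156.99, distance 0.0441). For Gpt2 the same pair served Atf5, Nup62, Il4i1 and Il4i1b, neighbouring genes (145.38 and 2765.18, distance 0.0937). For Pck2 the rule returned its neighbours Dcaf11 and Nrl, whose windows hold the Pck2 pair itself. Likeness over 2 values says only that the scores are close.

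Some of the other genes among the 26 with a pair over a promoter window are named here after their values were seen, and no theme was tested over them. The CEBPG score 3100 was shared by 38 peaks, but it was not the highest, which was 3205.83. Psat1 of serine synthesis (ATF4 180.22, CEBPG 3100) and Slc7a11, the cystine transporter (153.06 and 3100), stood next to Asns and Gpt2 by ATF4 score. The tRNA synthetase genes Yars (127.88 and 1168.96), Iars (122.81 and 974.79) and Aars (75.35 and 2724.51) lay between Gpt2 and Got1. The Yars pair also lay over the promoter window of S100pbp. Between Gpt2 and Got1 also stood Btf3l4, Dhrs7, Serpinf1, Herpud1, Ptbp1, Nupr1, Knl1 and Taco1. Chac1 had the highest ATF4 score of the 26 (841.75, CEBPG 3100). Trib3, a pseudokinase gene induced by ATF4, had the lowest ATF4 score of the 26 (46.24, CEBPG 1007.02), with a CEBPG score near that of Got1. Acot2, a mitochondrial acyl-CoA thioesterase gene, had the second-highest ATF4 score (276.88, CEBPG 1182.01).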
